A study of Mus musculus with 10 samples.

Results

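Krüppel-like factors (KLF) were followed across embryonic mouse kidneys by 10 genes: *Klf2*, *Klf3*, *Klf4*, *Klf5*, *Klf6*, *Klf7*, *Klf9*, *Klf10*, *Klf13* and *Klf15*. They were found by symbol among the 35663 gene entries of the deposited table, and all 10 were present. RNA-seq had been performed on whole kidneys of E13.5 embryos of strain C57/b6, and the question here was whether *Klf4* moved alone or with its paralogs. The 4 wild-type libraries carried no Cre allele. The 3 *Foxd1*GC control libraries, labelled Foxd1-Cre, carried an allele that makes Cre in stromal progenitors, and no *Ntn1* deletion. The 3 *Ntn1*SPKO libraries, labelled Foxd1-Cre; Ntn1/cc, carried the same Cre allele and floxed *Ntn1*, so that netrin 1 was deleted in *Foxd1*-expressing stromal progenitors and their descendants. Mutants and *Foxd1*GC controls thus shared the Cre allele, and wild-type kidneys differed from both by lacking it. The paper states that this allele also entails the loss of a *Foxd1* allele. The RNA came from the whole organ, which also holds nephron progenitors, ureteric epithelium, vessels and blood. In such samples fewer cells of a type and less RNA per cell cannot be told apart.

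KLF proteins are zinc-finger transcription factors with a conserved carboxy-terminal DNA-binding domain that recognises CACCC and other GC-rich elements. Their amino-terminal parts differ: some members bind the corepressor CtBP, others bind Sin3A and histone deacetylases, and others mainly activate transcription. *Klf4* and its near relative *Klf2* are known for roles in vascular cells, and Klf4 holds smooth muscle cells back from contractile differentiation by opposing myocardin and SRF at CArG boxes. The study picked *Klf4* for follow-up from these same libraries, so that its difference between mutant and control kidneys is not independent evidence. The same mutant libraries also enter its comparison with wild-type kidneys. Apart from the libraries, the paper reported less Klf4 protein in stromal progenitors of mutant kidneys at E13.5, by immunostaining.

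Promoter sequences are shown for *Klf4*, for *Klf15*, which differed from wild-type kidneys in the opposite direction, and for *Klf6* and *Klf2*, the other members that varied most between libraries. RefSeq (GRCm38.p6) held a window for 8 of the 10 members. Each run is the 250 bases before the transcription start, 5′ to 3′ on the strand of the gene. The windows are chr4:55532476-55532725 on the minus strand for *Klf4*, and on the plus strand chr6:90462326-90462575 for *Klf15*, chr13:5861239-5861488 for *Klf6* and chr8:72318812-72319061 for *Klf2*. Capitals mark CACCC, the element that KLF proteins recognise, GGGCGG (the GC box of SP proteins), CACGTG (an E-box), and in *Klf2* a match to the MEF2 box, each on either strand. Matches may overlap, as in the first capitals of *Klf4*.
Klf4: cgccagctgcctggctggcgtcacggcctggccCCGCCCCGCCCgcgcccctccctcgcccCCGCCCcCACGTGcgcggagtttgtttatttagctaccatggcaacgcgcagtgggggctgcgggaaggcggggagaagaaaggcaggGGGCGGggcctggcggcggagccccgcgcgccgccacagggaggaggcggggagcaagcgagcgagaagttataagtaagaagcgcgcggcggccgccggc
Klf15: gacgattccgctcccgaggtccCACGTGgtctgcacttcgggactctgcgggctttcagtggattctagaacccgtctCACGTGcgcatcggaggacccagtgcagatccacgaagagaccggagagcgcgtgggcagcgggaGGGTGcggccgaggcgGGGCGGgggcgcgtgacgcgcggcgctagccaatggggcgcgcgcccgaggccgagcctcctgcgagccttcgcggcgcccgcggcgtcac
Klf6: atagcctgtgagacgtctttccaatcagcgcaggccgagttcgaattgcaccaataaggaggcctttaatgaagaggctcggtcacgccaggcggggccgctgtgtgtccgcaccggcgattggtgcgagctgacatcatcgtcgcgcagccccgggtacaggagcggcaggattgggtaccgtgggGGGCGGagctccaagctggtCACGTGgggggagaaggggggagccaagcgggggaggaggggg
Klf2: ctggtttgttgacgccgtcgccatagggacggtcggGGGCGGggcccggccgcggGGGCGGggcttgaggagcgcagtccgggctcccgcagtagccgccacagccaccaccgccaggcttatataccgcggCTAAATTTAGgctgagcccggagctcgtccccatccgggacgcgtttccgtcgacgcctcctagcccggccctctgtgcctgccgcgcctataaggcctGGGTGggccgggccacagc
GGGCGG was found in 7 of the 8 KLF windows and in 32.7% of all 32817 windows of that length. CACCC was in 6 of the 8, with 52% of all windows, but not in *Klf4* or *Klf6*. CACGTG was in 3 of the 8, namely *Klf4*, *Klf6* and *Klf15*, with 6.02% of all windows. TATAA, also searched on both strands, was in 2 of the 8, with 22.8% of all windows. A CArG box, the site of SRF, was found in 0 of the 8 and in 1.47% of all windows. The MEF2 box was in *Klf2* alone among the 8, and in 0.509% of all windows. KLF windows had a median GC content of 71.4%, and all windows 52.4%. A match describes letters and does not show that a factor binds.

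Values are FPKM as deposited, fragment numbers normalised to transcript length and already scaled between libraries. Their median-of-ratios factors were equal, while their sums were not. Summed FPKM was 795829 to 1002638 per library, and the spacing of the smallest values put the depth at very roughly 26.6 to 34.6 M fragments. At that depth *Klf9* rested on about 36 to 57 fragments per library and *Klf15* on 37 to 84, against 278 to 884 for *Klf4* and 959 to 1364 for *Klf3*. The labels do not say whether a library was 1 embryo or a pool, so the spread between libraries may be partly technical. The 3 groups were compared in pairs with limma on log2(FPKM + 0.1), over every gene that averaged 0.5 FPKM or more, and a gene was called when its Benjamini-Hochberg adjusted p was under 0.1 and its change 2-fold or more. Single genes were also tested with a two-sided exact permutation test over libraries, whose smallest p is 0.1 for 3 against 3 and 0.0286 for 3 against 4.

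Markers of endothelium (12 of 12), cortical stroma (8 of 8), nephron progenitors (6 of 6) and ureteric bud (8 of 8) were above 1 FPKM in every library, as the labelled tissue requires. *Foxd1*GC control replicate 3 stood apart: its 8 ureteric bud markers summed to 88.2 FPKM, against 209.9 to 250.02 FPKM in the other 9 libraries, and its 10 skeletal muscle genes to 778 FPKM. The skeletal muscle sums of the *Ntn1*SPKO and wild-type libraries did not overlap, at 7.14 to 53.5 FPKM in the 3 *Ntn1*SPKO libraries and 82.3 to 152 FPKM in wild-type libraries, with 161 and 41.8 FPKM in *Foxd1*GC control replicates 1 and 2. Embryo sex also differed. The 4 Y-linked genes summed to 88.6 to 98.1 FPKM in all 3 *Ntn1*SPKO libraries, *Foxd1*GC control replicate 2 and wild-type replicate 3, and to 0.21 to 1.02 FPKM in the other 5. *Ntn1* itself was 16.3, 13.1 and 10.7 FPKM in *Ntn1*SPKO, 40.7, 24.2 and 51.4 FPKM in *Foxd1*GC control and 27.1 to 46.3 FPKM in wild-type kidneys. All 3 mutant libraries were thus below the 7 others, in keeping with their labels.

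All 10 KLF genes were expressed in wild-type kidneys. *Klf3*, a CtBP-binding repressor, was highest, at 37.2 ± 2.14 FPKM (SD, n = 4). *Klf6*, a broadly expressed activator, followed at 13.0 ± 0.872 FPKM, *Klf10*, a TGFβ-inducible repressor, at 12.7 ± 0.619 FPKM, *Klf4* at 11.1 ± 1.87 FPKM and *Klf13*, a Sin3A-binding member, at 10.04 ± 1.40 FPKM. Neighbours among these 4 overlapped between libraries. *Klf7*, known from neuronal development, was at 7.16 ± 0.691 FPKM, *Klf5*, a regulator of epithelial proliferation, at 5.99 ± 0.627 FPKM and *Klf2* at 4.84 ± 0.694 FPKM, again with overlap between neighbours. *Klf9*, a glucocorticoid- and thyroid hormone-induced member, was at 2.25 ± 0.208 FPKM and *Klf15*, a glucocorticoid-induced member, lowest at 1.16 ± 0.124 FPKM. The ranges did not overlap between *Klf3* and *Klf6*, *Klf13* and *Klf7*, *Klf2* and *Klf9*, or *Klf9* and *Klf15*.

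**Figure D1:**
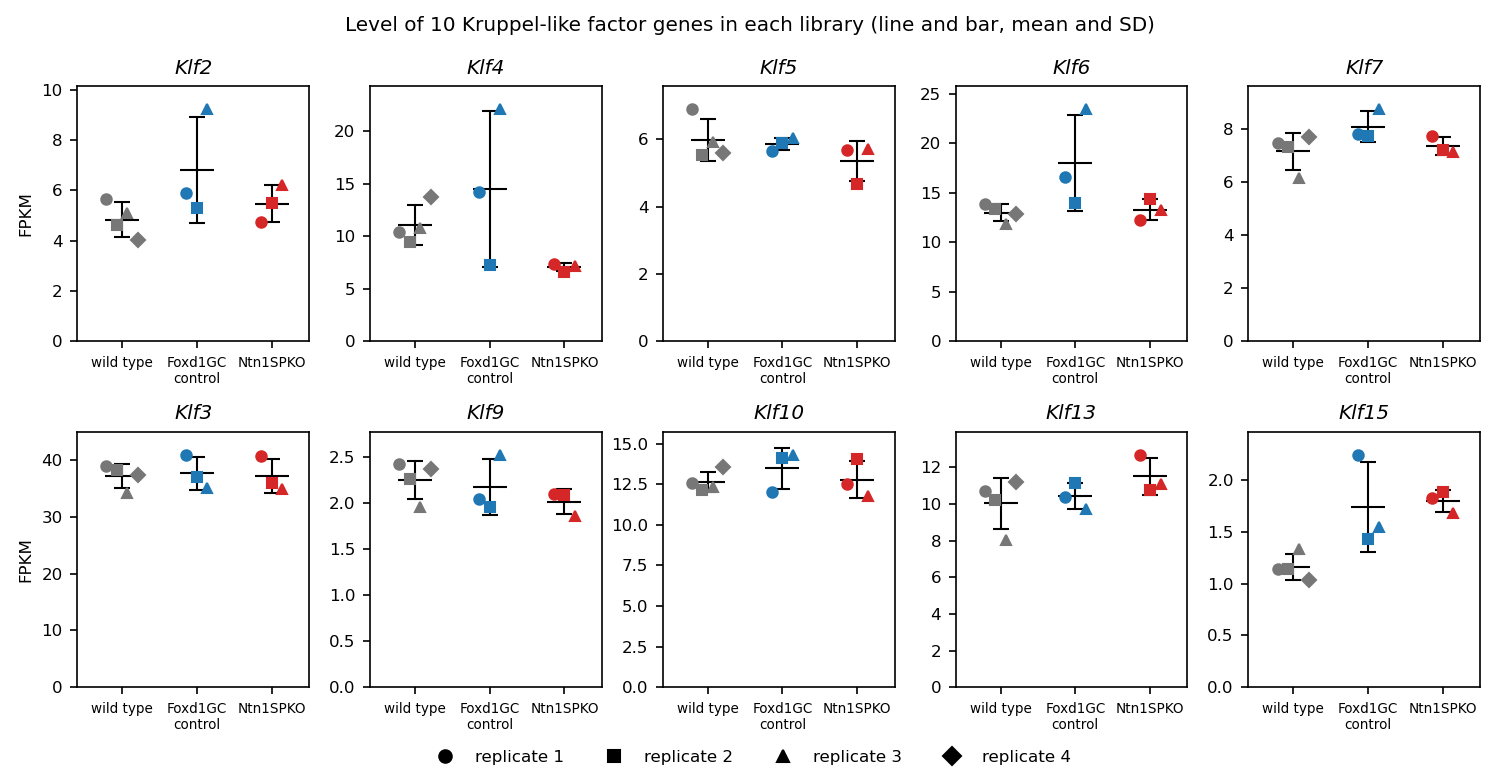
FPKM of each KLF gene (vertical axes from 0, each with its own scale) in the libraries of the 3 groups; symbols give the replicate number, and lines and bars the mean and SD. *Klf4* sits between 6.62 and 7.39 FPKM in the mutants and between 7.22 and 22.1 FPKM in *Foxd1*GC controls, whereas *Klf3* spans only 34.1 to 40.9 FPKM over all libraries.

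Against *Foxd1*GC control kidneys, 0 of the 10 KLF genes were called in *Ntn1*SPKO kidneys. *Klf4* had the largest difference of the members. It was 7.39, 6.62 and 7.20 FPKM in the 3 *Ntn1*SPKO libraries and 14.2, 7.22 and 22.1 FPKM in *Foxd1*GC control replicates 1 to 3. The mutants lay close together, and control replicate 2 fell within their range. The log2 fold change was −0.89 (standard error, SE, 0.38, 95% interval −1.80 to 0.02, limma's adjusted p = 0.447, permutation p = 0.2). Control replicate 2 is also the control library with Y-linked RNA, as in all 3 mutants. Without it *Klf4* was called, at −1.31 (limma's adjusted p = 0.0986), which makes 1 of 10 members. Calls rose over all genes too in that fit, to 78 of 14564, and group and embryo sex then cannot be told apart. With embryo sex as a covariate the difference was −0.03, which is that of the 3 mutants from control replicate 2 alone. Without control replicate 3, the library rich in muscle genes, it was −0.51 (limma's adjusted p = 0.677). The part of sex and of muscle content in the difference was not tested further.

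*Klf6* and *Klf2* had the next largest differences. *Klf6* was 12.2, 14.4 and 13.2 FPKM in *Ntn1*SPKO and 16.6, 13.97 and 23.4 FPKM in *Foxd1*GC control kidneys, with a log2 fold change of −0.41 (SE 0.19, limma's adjusted p = 0.447, permutation p = 0.2). *Klf2* was 4.75, 5.49 and 6.20 FPKM against 5.90, 5.29 and 9.23 FPKM, a log2 fold change of −0.27 (SE 0.23, limma's adjusted p = 0.578, permutation p = 0.5). Without control replicate 3 the log2 fold changes were −0.20 for *Klf6* and −0.036 for *Klf2*, and without control replicate 2 *Klf2* was −0.43. For both genes the groups overlapped, and control replicate 3 was the highest of all 10 libraries. That library was the highest for 6 of the 10 members, *Klf2*, *Klf4*, *Klf6*, *Klf7*, *Klf9* and *Klf10*.

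The other 7 members differed little between mutant and control kidneys. Log2 fold changes were −0.13 for *Klf5* and *Klf7*, −0.10 for *Klf9*, −0.08 for *Klf10*, −0.02 for *Klf3*, 0.07 for *Klf15* and 0.14 for *Klf13*, with permutation p from 0.2 to 0.9. In this comparison 8 of 14550 genes tested (0.055%) were called. An unadjusted p under 0.05 was reached by 0 members and 10.7% of all genes, and groups did not overlap for 0 members and 19.9% of all genes. The members' median log2 fold change was −0.12, with 8 lower and 2 higher, where the median of all genes was 0.0067 and 48.8% were lower.

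**Figure D2:**
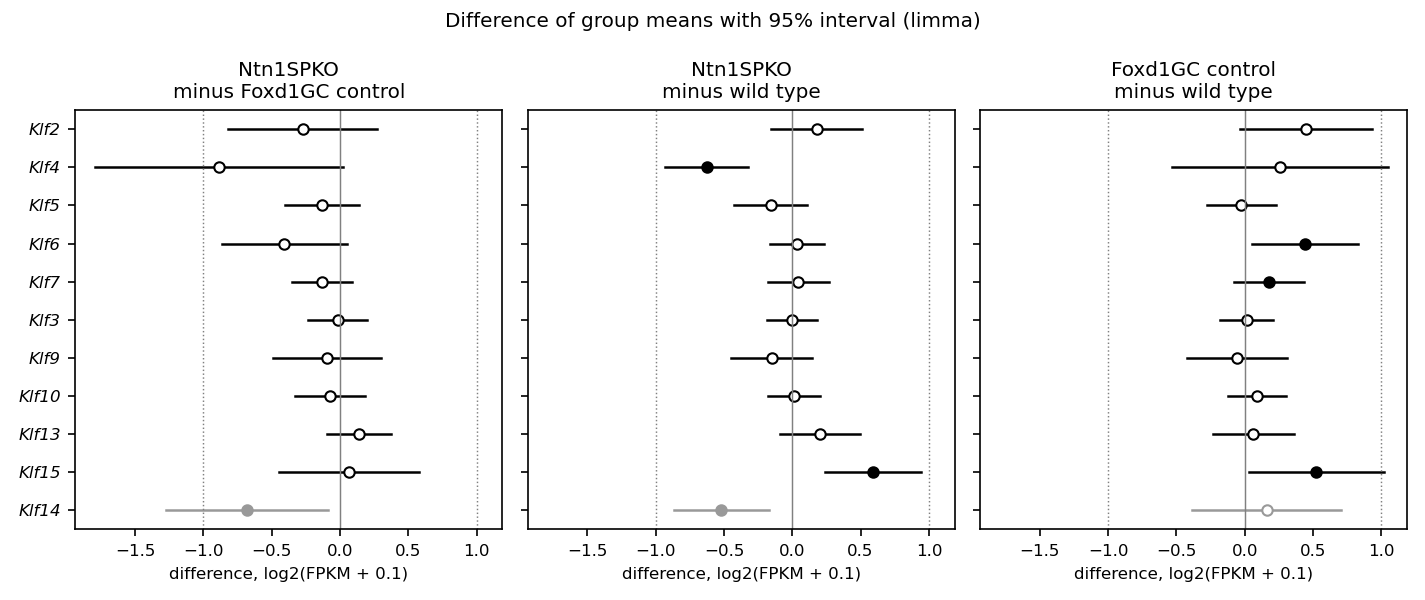
Difference of group means on the log2(FPKM + 0.1) scale (horizontal axis) with limma's 95% interval for the 10 KLF genes and *Klf14* (grey), in 3 comparisons; filled points mark groups that do not overlap, and dotted lines a 2-fold change. *Klf4* lies at −0.89, −0.63 and 0.26, and *Klf15* at 0.07, 0.59 and 0.52.

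Against wild-type kidneys, *Klf4* was lower and *Klf15* higher in every *Ntn1*SPKO library, while 0 of the 10 members were called. The wild-type libraries had 10.4, 9.45, 10.7 and 13.8 FPKM of *Klf4*, all above the highest mutant library (7.39 FPKM). The log2 fold change was −0.63 (SE 0.13, 95% interval −0.93 to −0.33, limma's adjusted p = 0.25, permutation p = 0.0286), which is less than a 2-fold change. Leaving out each library in turn gave −0.70 to −0.52. Wild-type replicate 3, the wild-type library with Y-linked RNA, had 10.7 FPKM. With embryo sex as a covariate the difference was −0.60, which is that of the 3 mutants from this library alone, and it is given with no test. A fit of all 10 libraries with that covariate was added with the data in view and gave −0.16 (limma's adjusted p = 0.864).

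*Klf15* was 1.83, 1.89 and 1.68 FPKM in *Ntn1*SPKO and 1.14, 1.14, 1.33 and 1.04 FPKM in wild-type kidneys. The groups did not overlap, and the log2 fold change was 0.59 (SE 0.15, 95% interval 0.24 to 0.94, limma's adjusted p = 0.442, permutation p = 0.0286). *Klf15* is among the lowest members, and its values rested on few fragments.

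The remaining 8 members overlapped between *Ntn1*SPKO and wild-type kidneys. *Klf13* had 12.7, 10.8 and 11.1 FPKM in mutants and 10.7, 10.2, 8.04 and 11.2 FPKM in wild-type libraries, a log2 fold change of 0.20 (SE 0.13, limma's adjusted p = 0.947, permutation p = 0.257). Wild-type replicate 3 had the lowest *Klf13* of all 10 libraries. *Klf2* was at 0.18, *Klf7* at 0.04, *Klf6* at 0.03, *Klf10* at 0.01, *Klf3* at −0.0016, *Klf9* at −0.15 and *Klf5* at −0.16 on the same log2 scale. Of all 14432 genes, 0.0485% were called. An unadjusted p under 0.05 was reached by 2 of the 10 members and 5.76% of all genes, and groups did not overlap for the same 2, *Klf4* and *Klf15*, and for 7.1% of all genes. The median over the 10 members was 0.02, with 6 higher and 4 lower, and over all genes 0.0034.

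*Foxd1*GC control kidneys differ from wild-type kidneys by the Cre allele and the *Foxd1* allele lost with it. They had higher *Klf6* and *Klf15* values in every library, and again 0 of the 10 members were called. *Klf6* was 16.6, 13.97 and 23.4 FPKM in controls against 13.8, 13.3, 11.8 and 12.9 FPKM in wild-type libraries (log2 fold change 0.44, SE 0.17, limma's adjusted p = 0.665, permutation p = 0.0286). *Klf15* was 2.24, 1.44 and 1.55 FPKM in controls, above the highest wild-type library at 1.33 FPKM (log2 fold change 0.52, SE 0.21, limma's adjusted p = 0.665, permutation p = 0.0286). *Klf7* did not overlap either, at 7.82, 7.72 and 8.75 FPKM against 7.46, 7.31, 6.16 and 7.72 FPKM, with a smaller log2 fold change of 0.18 (limma's adjusted p = 0.669, permutation p = 0.0571). Its groups all but touched, at 7.725 FPKM in control replicate 2 and 7.718 FPKM in wild-type replicate 4. This comparison and that of *Ntn1*SPKO with wild-type kidneys share the 4 wild-type libraries, and for *Klf15* the 2 log2 fold changes were 0.52 and 0.59.

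*Klf4* in *Foxd1*GC controls lay on both sides of the wild-type range. The log2 fold change was 0.26 (95% interval −0.53 to 1.05, limma's adjusted p = 0.81, permutation p = 0.543). Without control replicate 3 it turned to −0.11, and without control replicate 2 it was 0.69. *Klf2* was at 0.45 (limma's adjusted p = 0.665, permutation p = 0.0857), falling to 0.21 without control replicate 3. *Klf10*, *Klf13*, *Klf3*, *Klf5* and *Klf9* were between −0.05 and 0.09 on the log2 scale. Of 14594 genes, 1 was called (0.00685%). An unadjusted p under 0.05 was reached by 2 of the 10 members and 7.06% of all genes, and groups did not overlap for 3 members and 8.09% of all genes. The median over the members was 0.13, with 8 higher and 2 lower, and over all genes −0.0072.

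To ask whether *Klf4* moved alone, its log2 level minus that of each other member was taken within each library and compared between groups, for 9 pairs that all share *Klf4*. Against wild-type kidneys, *Klf4* was lower relative to each of the 9 paralogs, and the groups did not overlap for any pair. *Klf4* alone already separated these groups, and the study picked it with the same mutant libraries, so the 9 pairs are not independent evidence. For 7 pairs the permutation p was 0.0286, the smallest possible. The shift was −0.81 against *Klf2*, −0.67 against *Klf7*, −0.66 against *Klf6*, −0.64 against *Klf10*, −0.63 against *Klf3* and −0.83 against *Klf13* on the log2 scale. It was widest against *Klf15*, at −1.22, since that gene was higher in the mutants. *Klf5* (−0.47) and *Klf9* (−0.48) had an permutation p of 0.0571. Leaving out each library in turn, all 9 shifts stayed below 0, with values no closer to 0 than −0.33, but no pair can then reach an exact p under 0.05, the smallest being 0.0667 or 0.1.

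Against *Foxd1*GC controls the same 9 shifts were all negative, from −1.02 (*Klf13*) to −0.48 (*Klf6*). Only the pair with *Klf15* was separate between groups, at −0.95 (permutation p = 0.1, the smallest possible), and the others had p of 0.2 to 0.4. Control replicate 2 lay with the mutants in the other 8 pairs, or below them. Without control replicate 3 the 9 shifts ran from −0.60 (*Klf13*) to −0.31 (*Klf6*), and without control replicate 2 from −1.50 (*Klf13*) to −0.74 (*Klf6*), where each of the 9 pairs had a permutation p of 0.1, the smallest that 3 against 2 libraries can give. A different movement of *Klf4* was therefore not shown against these controls. Between *Foxd1*GC control and wild-type kidneys the shifts ranged from −0.27 to 0.31, and 0 of the 9 pairs were separate (permutation p = 0.371 to 0.857).

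**Figure D3:**
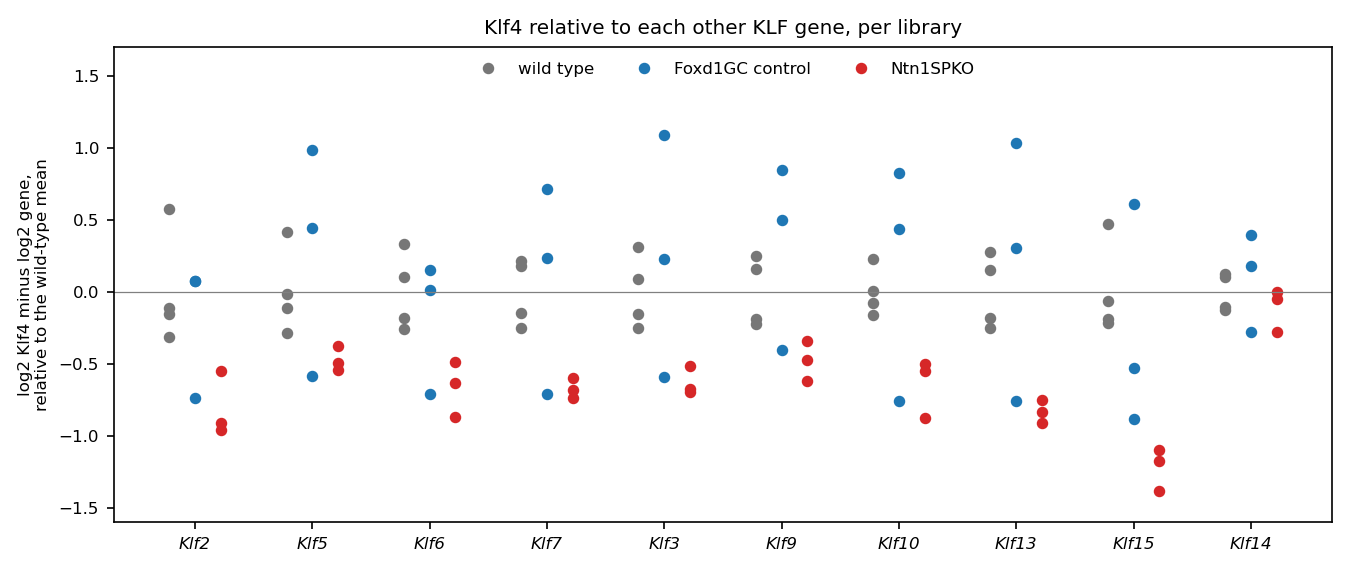
Log2 level of *Klf4* minus that of each other KLF gene in every library, set to 0 at the wild-type mean (vertical axis, log2 scale). The *Ntn1*SPKO points lie below all wild-type points for the 9 members. *Foxd1*GC control points spread over both, except for *Klf15*, where they stay above the *Ntn1*SPKO points. For *Klf14*, on the right, the groups overlap.

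Of the KLF genes outside the 10, *Klf14* came closest to *Klf4*. *Klf14* is a single-exon gene on chromosome 6 (30956023 to 30959078, GRCm38) known as an imprinted member of the family. It was 1.84, 2.01 and 1.85 FPKM in *Ntn1*SPKO, 3.16, 2.20 and 4.26 FPKM in *Foxd1*GC control and 2.80, 2.20, 2.95 and 3.18 FPKM in wild-type kidneys. All 3 mutant libraries were thus below the 7 others. The log2 fold change was −0.68 against controls (SE 0.25, limma's adjusted p = 0.447, permutation p = 0.1) and −0.52 against wild-type kidneys (SE 0.15, limma's adjusted p = 0.536, permutation p = 0.0571). *Klf4* relative to *Klf14* shifted by −0.21 and −0.11 on the log2 scale (permutation p = 0.5 and 0.343), so that a difference between their changes was not detected. *Klf14* rested on about 48 to 115 fragments per library.

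Among the 10 members *Klf4* varied most over the 10 libraries. The SD of its log2 level was 0.551 and its highest library was 3.34 times its lowest. *Klf15* (SD 0.339), *Klf2* (0.316) and *Klf6* (0.283) followed, and the other 6 had SDs of 0.0912 to 0.168, below the median of 0.175 over 13143 genes. *Klf8*, outside the 10, had an SD of 0.754. The likeness of 2 genes was measured by the root mean square distance between their log2 profiles, each centred on its own mean over the 10 libraries, among genes averaging 1 FPKM or more. The nearest member to *Klf4* was *Klf6*, at 0.386 and rank 531 of 13142 genes, where a flat profile would be at 0.523. *Klf9* (0.446), *Klf2* (0.465) and *Klf7* (0.477) came next, and *Klf15* was farthest of the members, at 0.652. *Klf14* was at 0.20 and rank 26. *Foxd1* (0.317, rank 190) and *Ntn1* (0.357, rank 337) were also nearer to *Klf4* than any of the other members.

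The 5 genes nearest to *Klf4* belonged to no KLF list. They were *Fap* (0.112), a serine protease of mesenchymal cells, *Emp1* (0.13), a tetraspan membrane protein, *Tgfb2* (0.133), a TGFβ ligand, *Spon1* (0.139), a secreted matrix protein, and *Bmp3* (0.143), a BMP family ligand. *Fap* had 4.89, 4.06 and 4.78 FPKM in *Ntn1*SPKO, 10.9, 5.001 and 17.1 FPKM in *Foxd1*GC control and 6.71, 6.55, 7.78 and 8.34 FPKM in wild-type libraries. *Tgfb2* had 13.7, 13.2 and 13.8 FPKM, then 27.6, 15.9 and 39.4 FPKM, and 18.4, 16.7, 16.7 and 22.7 FPKM in the same order. In each of the 5, *Foxd1*GC control replicate 3 was the highest library and the mutants were low, as for *Klf4*. These distances describe 10 libraries that share their groups and carry no test.

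**Figure D4:**
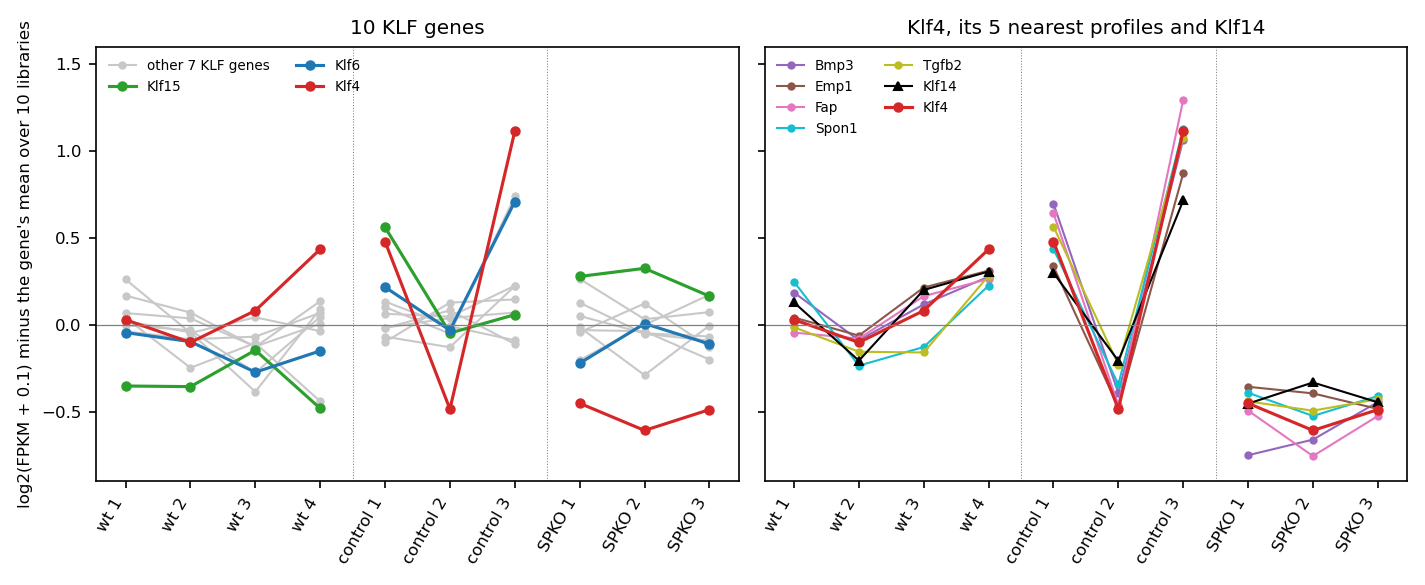
Log2(FPKM + 0.1) of each gene minus its own mean over the 10 libraries (vertical axis), by library; the left panel shows the 10 KLF genes, and the right panel *Klf4*, its 5 nearest genes and *Klf14*. *Klf4* and its nearest genes peak in *Foxd1*GC control replicate 3, where *Klf6* also rises, and are low in control replicate 2 and the 3 mutants.

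The SP genes, which share the zinc-finger domain with the KLF genes, were taken as the nearest outgroup, and 5 of 9 passed the filter on low values. Against *Foxd1*GC controls all 5 were higher in *Ntn1*SPKO kidneys (median 0.22, range 0.10 to 0.69 on the log2 scale), and 0 were called by limma, with 1 at an unadjusted p under 0.05. Control replicate 3, the library that stood apart, was the lowest of all 10 libraries for each of the 5. *Sp4* was 14.1, 13.3 and 12.4 FPKM against 10.7, 11.7 and 9.23 FPKM, without overlap (log2 fold change 0.33, limma's adjusted p = 0.447, permutation p = 0.1). *Sp5* was also separate, at 0.69, and groups did not overlap for 19.9% of all genes. Against wild-type kidneys the 5 split into 3 higher and 2 lower (median 0.04), and in *Foxd1*GC controls against wild-type kidneys all 5 were lower (median −0.16). The 7 corepressor genes through which many KLF proteins act had medians of 0.13, −0.0067 and −0.05 in the same 3 comparisons, with 0 called by limma and 1, 0 and 1 at an unadjusted p under 0.05. *Hdac1* was the lowest in p among them against controls, at 104, 105 and 108 FPKM in *Ntn1*SPKO and 92.9, 99.7 and 84.6 FPKM in *Foxd1*GC control libraries (log2 fold change 0.20, limma's adjusted p = 0.447, permutation p = 0.1). Control replicate 3 was the lowest library for *Hdac1* too.

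Genes of myocardin, SRF and smooth muscle, the setting in which Klf4 acts as a repressor, had 7 of 10 members tested and 0 called by limma, with 1, 0 and 1 at an unadjusted p under 0.05 in the 3 comparisons. Against *Foxd1*GC controls 3 were higher and 4 lower in *Ntn1*SPKO kidneys (median −0.17). The 10 genes summed to 166 FPKM in control replicate 3, the library rich in muscle genes, and to 82.7 to 106 FPKM in the others. *Acta2* was 80.6 FPKM in that library and 15.3 to 25.3 FPKM in the others. *Myocd*, which encodes myocardin, was 1.48, 1.12 and 1.68 FPKM in *Ntn1*SPKO, 3.61, 2.62 and 2.60 FPKM in *Foxd1*GC control and 1.98, 1.78, 1.35 and 0.882 FPKM in wild-type libraries. It was lower than in controls without overlap (log2 fold change −0.9997, SE 0.22, limma's adjusted p = 0.447, permutation p = 0.1), while controls were above wild-type kidneys (0.97, limma's adjusted p = 0.665, permutation p = 0.0571). Mutants and wild-type libraries overlapped for this gene. Against wild-type kidneys the 7 had a median of 0.08.

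Immediate early genes and glucocorticoid-response genes, classes to which several KLF genes belong by their regulation, had 0 called by limma in every comparison. At an unadjusted p under 0.05 there were 0, 1 and 2 immediate early genes and 1, 0 and 1 glucocorticoid-response genes. Of the immediate early genes, 12 were tested against controls (5 higher, 7 lower, median −0.11) and 13 against wild-type kidneys (8 higher, 5 lower, median 0.04). *Jun* was 15.7, 14.9 and 17.9 FPKM in *Ntn1*SPKO and 18.7 to 20.5 FPKM in wild-type libraries (log2 fold change −0.29, limma's adjusted p = 0.515, permutation p = 0.0286). In *Foxd1*GC controls *Atf3*, *Junb* and *Dusp1* were above all wild-type libraries, at 0.62, 0.39 and 0.32 on the log2 scale (limma's adjusted p = 0.665 each, permutation p = 0.0286 each). Of the 13 tested in that comparison, 7 were higher and 6 lower (median 0.04), with *Egr2* lowest at −1.08. Groups did not overlap for these 3 genes and for 8.09% of all genes. Of the 6 glucocorticoid-response genes, *Fkbp5* was 48.0, 42.9 and 40.9 FPKM in *Ntn1*SPKO and 35.1, 37.6 and 36.3 FPKM in *Foxd1*GC control kidneys (log2 fold change 0.27, limma's adjusted p = 0.447, permutation p = 0.1). Over the 6, the medians were 0.10 against controls and 0.02 against wild-type kidneys.

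Cell type markers differed between groups beside the KLF genes in several places. Of the skeletal muscle genes 8 of 10 were tested, and all 8 had lower means in *Ntn1*SPKO kidneys, both against wild-type kidneys (median −1.84, with 6 at an unadjusted p under 0.05 and 4 without overlap) and against *Foxd1*GC controls (median −2.60, with 3 and 4). Over all genes, an unadjusted p under 0.05 was reached by 5.76% against wild-type kidneys and 10.7% against controls. Groups did not overlap for 7.1% and 19.9% of all genes in the same order. Limma called 0 of the 8 muscle genes. *Klf4* also had a lower mean in both comparisons, and the muscle sums by library are given above. All 8 ureteric bud genes had higher means in mutant kidneys than in the *Foxd1*GC controls (median 0.72, 0 at an unadjusted p under 0.05), control replicate 3 being the low library, and had a median of 0.07 against wild-type kidneys. The 12 endothelial genes, relevant to *Klf2* and *Klf4*, had a median of 0.0034 when mutants were set against *Foxd1*GC controls, with summed levels of 222 to 254 and 240 to 269 FPKM. They were higher for 11 of 12 against wild-type kidneys, whose sums were 187 to 236 FPKM (median 0.24). All 12 were also higher in *Foxd1*GC controls than in wild-type kidneys (median 0.22). Erythroid genes, 9 of 10 tested, had a median of 1.04 in *Foxd1*GC controls against wild-type kidneys, and their sum was highest in control replicates 1 and 3 and in *Ntn1*SPKO replicate 3 (16121 to 18628 FPKM, others 4767 to 10797 FPKM). The 8 cortical stroma genes, which include *Foxd1*, summed to 660 to 696 FPKM in *Ntn1*SPKO, 656 to 709 FPKM in *Foxd1*GC control and 689 to 769 FPKM in wild-type kidneys. Against wild-type kidneys 6 of the 8 were lower and 2 higher (median −0.05). Of the 6, *Foxd1*, *Aldh1a2* and *Pdgfra* did not overlap and had an unadjusted limma p under 0.05. *Aldh1a2* was 208, 200 and 184 FPKM in *Ntn1*SPKO and 214 to 256 FPKM in wild-type libraries. *Pdgfra* was 55.2, 51.4 and 57.7 FPKM against 58.7 to 66.0 FPKM. In the comparison with *Foxd1*GC controls 6 were also lower (median −0.10), with 0 separate. *Foxd1*, which marks the progenitors that express *Klf4*, was 14.3, 15.4 and 14.2 FPKM in *Ntn1*SPKO and 21.3 to 30.7 FPKM in wild-type libraries (log2 fold change −0.72, limma's adjusted p = 0.193, permutation p = 0.0286), and one of its alleles carries Cre in both mutants and controls. Against the controls, which share that allele, *Foxd1* overlapped, with 19.7, 14.6 and 25.6 FPKM in controls (log2 fold change −0.41, limma's adjusted p = 0.45, permutation p = 0.2). Of the mesothelial genes, 0 of 3 passed the filter on low values. The part of these changes in the KLF values was not tested.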

How the data were processed

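RNA was extracted from whole E13.5 kidneys of 4 wild-type, 3 *Ntn1*SPKO and 3 *Foxd1*GC control samples. The authors quantified reads with Salmon against coding sequences of Ensembl GRCm38 and imported them with tximport; base calls were made with bcl2fastq 2.17.1.14 per the submitters' processing notes. The table deposited by the authors holds FPKM, not counts, for 35663 entries, and was used as it stands. Their median-of-ratios factors were equal in all libraries.

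Genes averaging 0.5 FPKM or more in a fit entered limma 3.58.1 (R 4.3.3) as log2(FPKM + 0.1) (eBayes with intensity trend, Benjamini-Hochberg over all genes tested). Fold changes on this scale understate those of low genes. The limma fit was tested on simulated data, with planted changes larger than those of the KLF genes here. The permutation test was checked on small made-up values, and the other steps were not simulated. Coordinates are 1-based positions of GRCm38, and promoters are from RefSeq. Coding sequences of *Klf4* and *Klf5* share 4.09% and 7.34% of their 31-base words with transcripts of other genes, most with *Gm48640* and *Gm6007*. The remaining 8 members share 0%.

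All 10 members were named, with up to 4 genes per list (the lowest unadjusted p) and the 5 genes nearest to *Klf4*. Members and lists were chosen with earlier results of these data known. *Klf1* was not analysed here, and *Klf17* was listed at 0 in every library. Alternatives were another pseudocount, filter, scaling, eBayes setting or threshold, all libraries in one fit, embryo sex as a covariate, a replicate block, and leaving out each library.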

Additional observations from a re-analysis of the deposited data

How the results depend on the processing

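The number of KLF genes called stayed 0 in 61 of 62 alternatives over the 3 comparisons, and was 0 to 1 when leaving out each library in turn against *Foxd1*GC controls (1 without control replicate 2, where 78 of 14564 genes were called, against 3 to 21 genes without any other library and 8 with all). *Klf4* ranged from −1.31 to −0.51 against *Foxd1*GC controls, from −0.70 to −0.52 against wild-type kidneys, and from −0.11 to 0.69 in *Foxd1*GC controls against wild-type kidneys when leaving out each library; the cause was not tested. Of 560 log2 fold changes recomputed, 37 reversed, none further from 0 than 0.12. With embryo sex as a covariate, where the mutants are in effect set against the 1 library of the other group with Y-linked RNA, against controls *Klf2* was 0.041, *Klf3* 0.0030 and *Klf9* 0.040, and against wild-type kidneys *Klf3* was 0.12 and *Klf9* 0.038. With all 10 libraries and sex in one fit, added after the data had been seen, *Klf3* and *Klf9* were 0.049 and 0.056 against controls, and *Klf3*, *Klf9* and *Klf10* were 0.074, 0.022 and −0.0034 against wild-type kidneys. At the same summed FPKM *Klf3* was 0.019 against controls and 0.054 against wild-type kidneys, and after quantile normalization *Klf9* was 0.014 against controls and *Klf10* −0.00076 against wild-type kidneys. Leaving out each library, log2 ranges that crossed 0 were −0.084 to 0.044 (*Klf3*), −0.17 to 0.0096 (*Klf9*) and −0.054 to 0.25 (*Klf15*) against controls; −0.025 to 0.090 (*Klf6*), −0.025 to 0.082 (*Klf7*), −0.068 to 0.041 (*Klf3*) and −0.056 to 0.070 (*Klf10*) against wild-type kidneys; and, for controls against wild-type kidneys, −0.058 to 0.044 (*Klf5*), −0.045 to 0.067 (*Klf3*), −0.16 to 0.015 (*Klf9*) and −0.038 to 0.12 (*Klf13*). In the last comparison *Klf4* minus another member ranged from −0.33 to 0.077 (*Klf2*), −0.070 to 0.71 (*Klf5*), −0.35 to 0.082 (*Klf6*), −0.24 to 0.48 (*Klf7*), −0.18 to 0.66 (*Klf3*), −0.16 to 0.63 (*Klf10*), −0.23 to 0.67 (*Klf13*) and −0.71 to 0.042 (*Klf15*).

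With the replicate number as a block (replicate block), *Klf4* was −0.89, −0.52 and 0.37 in the 3 comparisons and *Klf3* 0.0015 against wild-type kidneys, with 0 members called. Same-numbered libraries correlated by −0.047 to 0.076 in their deviations from group means, and 1, 2 and 2 of 3 numbers correlated best with their own. So few libraries cannot settle whether the numbers pair them.

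FPKM hold no counts, so precision rests on the spread between 3 or 4 libraries, and low members such as *Klf9* and *Klf15* are the least certain.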

Other observations

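Among the other KLF genes, *Klf12* and *Klf8* had values that did not follow the groups. *Klf12* was 24.6 and 26.3 FPKM in wild-type replicates 2 and 4 and 11.3 to 16.5 FPKM in the other 8 libraries. *Klf8* was 2.52 to 2.90 FPKM in wild-type replicate 1, *Ntn1*SPKO replicate 2 and *Foxd1*GC control replicates 1 and 3, and 0.787 to 1.06 FPKM in the other 6. *Klf11* (4.61 to 5.92 FPKM) and *Klf16* (9.93 to 12.3 FPKM) were steady over all libraries. Of these 4 genes and *Klf14*, 0 were called by limma in any comparison, and *Klf14* alone had an unadjusted p under 0.05, in both comparisons with *Ntn1*SPKO kidneys.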
